A study of Mus musculus with 4 samples.

Results

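The interferon response and antigen presentation were followed through 49 genes in 4 RNA-Seq libraries of HT-22, a mouse hippocampal neuron line that grows without limit. The genes were taken from a list of 49 symbols. It covers interferon receptors, their transcription factors, RNA sensors, antiviral effectors, class I antigen presentation and the immunoproteasome. The rule itself uses no measured value, but the list was chosen with earlier results of these data known. Its counts beside those of all genes are therefore a description and no independent check. Of the 49 genes, 46 had values among the 11502 gene symbols of the table, and 41 had a 4-library mean of 1 FPKM or more, as did 10604 of all genes. FPKM is the number of sequenced fragments scaled by transcript length and by all mapped fragments; the table names no unit and its values were taken as FPKM. The values of all transcripts of a gene were added. Oasl2, Rsad2 and Parp12 were not analysed here. Irf7, Ifit1, Ifit3, Gbp2 and Usp18 stayed below the mean of 1 FPKM and are described by their values alone.

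The 4 libraries came from cells carrying negative control lentivirus (Ctrl), cells carrying lentivirus for PGC-1α (PGC-1α), and the same 2 kinds of cells subjected to OGD, which is oxygen and glucose deprivation (Ctrl+OGD, PGC-1α+OGD). The deprivation lasted 2 h under nitrogen and carbon dioxide in a medium lacking serum and glucose, and RNA was taken after a further 24 h in normal medium. All 4 groups had been transduced and selected with puromycin, the source of the control cells is called wild type in the sample records, and no clone is named. The comparisons ask how PGC-1α, a co-activator of mitochondrial genes, alters expression with and without an ischemia-like insult. Each group had 1 library, so no difference below can be set against a spread between replicates, no p value was computed, and counting error is unknown because the table holds no read numbers. Where 4 values follow each other without names, they stand in the order Ctrl, PGC-1α, Ctrl+OGD, PGC-1α+OGD. Differences are given as log2 fold changes of FPKM + 1, which understate changes of low genes, and 1.5-fold was the smallest difference counted as higher or lower.

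Interferons are secreted by cells that detect foreign nucleic acid. Type I interferon binds the receptor of Ifnar1 and Ifnar2, which signals through a complex holding Stat2 and Irf9 that binds the interferon-stimulated response element in the promoters of antiviral genes. Interferon gamma binds the receptor of Ifngr1 and Ifngr2 and acts at gamma activated sites, among them one at Irf1, which in turn raises genes that cut, transport and display peptides on class I molecules. Cells keep a low level of many of these genes in the absence of infection, and neurons are known for low class I display.

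The promoters show which members carry these elements. RefSeq promoter windows on GRCm38.p6, from 250 bases before to 50 bases after each annotated start, were matched by symbol for 43 members. The core of the interferon-stimulated response element, searched on both strands as GAAA, any 2 bases and GAAA again, was found in 16 of the 43 members (37.2%), against 3.99% of all 27025 genes in the promoter table. The core of the gamma activated site, TTCNNNGAA, which reads the same on both strands, was found in 14 of the 43 (32.6%), against 9.55% of all genes. A match is a description of the letters in the window and not a shown binding site, and matches of one motif can overlap each other or the other motif. The stretches below lie upstream of the annotated starts and are printed 5′ to 3′ on the gene's strand, with every match of the core named for them in capitals (a match on the other strand reads TTTC, 2 bases, TTTC). They are shown because they include the member of highest level (B2m), the co-factor of the interferon complex (Stat2), genes at the edge of detection in these cells (Ifit1, Ifit3, Isg15), antiviral effectors (Bst2, Ifitm2) and the transcription factor with the largest difference after OGD (Irf1, gamma activated site core).
B2m, chr2:122147528-122147577, plus strand: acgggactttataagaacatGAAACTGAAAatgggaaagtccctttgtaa
Stat2, chr10:128270256-128270305, plus strand: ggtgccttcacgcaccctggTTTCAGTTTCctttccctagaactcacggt
Ifit1, chr19:34640765-34640833, plus strand: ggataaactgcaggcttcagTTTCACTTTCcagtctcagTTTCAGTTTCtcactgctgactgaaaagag
Ifit3, chr19:34583353-34583436, plus strand: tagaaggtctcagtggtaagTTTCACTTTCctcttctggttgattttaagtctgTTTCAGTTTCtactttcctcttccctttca
Isg15, chr4:156200855-156200916, minus strand: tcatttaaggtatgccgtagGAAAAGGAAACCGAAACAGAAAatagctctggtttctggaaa
Bst2, chr8:71537567-71537622, minus strand: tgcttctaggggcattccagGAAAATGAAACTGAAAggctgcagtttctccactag
Ifitm2, chr7:140955988-140956027, minus strand: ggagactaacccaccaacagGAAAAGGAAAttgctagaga
Irf1, chr11:53769904-53769952, plus strand: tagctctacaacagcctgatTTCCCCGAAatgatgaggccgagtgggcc

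Isg15 held 3 overlapping matches, Bst2 held 2 overlapping matches, and Ifit1 and Ifit3 held 2 separate matches each. The match in Ifitm2 began 46 bases before the RefSeq start, and that in Stat2 began 222 bases before it. Gene coordinates given below are those of GENCODE M21, whose starts can differ from the RefSeq starts.

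The libraries were comparable in column totals and in scaling, but less so in the number of transcripts listed at 0. That number was 1736, 1799, 2030 and 2070, and thus higher with OGD than without. Its part in the differences below was not tested. Column totals were between 331892 and 353381 FPKM, and 3 scalings between libraries shifted the median log2 fold change of all genes by less than 0.1. The overexpressed gene Ppargc1a was at 0.900 FPKM in Ctrl and 0.103 in Ctrl+OGD, against 35.1 in PGC-1α and 8.41 in PGC-1α+OGD, and thus higher in both libraries labelled with PGC-1α than in their controls. Of 8 neuronal markers, among them Map2, Tubb3 and Rbfox3, 0 had values here, so the neuronal identity given in the sample records could not be checked with them. Of 10 markers of microglia and macrophages, 4 had values (Cx3cr1, Tmem119, Cd68 and Trem2), and their summed level was between 1.98 and 4.47 FPKM; Aif1, Itgam, Csf1r and Ptprc were not analysed here. None of 4 endothelial markers, 2 of 5 astrocyte markers (S100b and Aldh1l1) and 1 of 4 oligodendrocyte markers (Mbp) had values, and the part of such cells in the differences below was not tested.

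B2m and the Ifitm genes had the highest levels of the 41 members. B2m (ENSMUSG00000060802), the light chain of every class I molecule, had a mean of 617 FPKM over the 4 libraries. Ifitm3 and Ifitm2, membrane proteins that hinder virus entry, had means of 158 and 136 FPKM, and Ifitm3 was at 184 and 173 FPKM without OGD (Ctrl, PGC-1α) and at 133 and 143 FPKM with it. Ifnar2, a chain of the type I interferon receptor, was at 88.1 and 69.6 FPKM without OGD and at 77.9 and 83.8 FPKM with it. Most of this came from the 1099-base transcript ENSMUST00000117836, at 69.9, 48.1, 59.4 and 69.6 FPKM. The 3047-base transcript ENSMUST00000023693 was at 13.3, 13.2, 12.6 and 10.9 FPKM. The class I heavy chain H2-K1 was at 78.5 and 86.2 FPKM without OGD and at 78.2 and 67.6 FPKM with it, so that its PGC-1α+OGD value was the lowest of the 4. Reads of H2-K1 and H2-D1 may be shared with each other and with further class I heavy chain genes of near-identical sequence, so the split between these genes is uncertain. At the low end stood Isg15, a ubiquitin-like modifier that is strongly induced by interferon, with a mean of 1.44 FPKM. Ifnar2 shares exons on its strand with Gm21970, whose values of at most 1.47 FPKM left its directions unchanged when added.

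**Figure D1:**
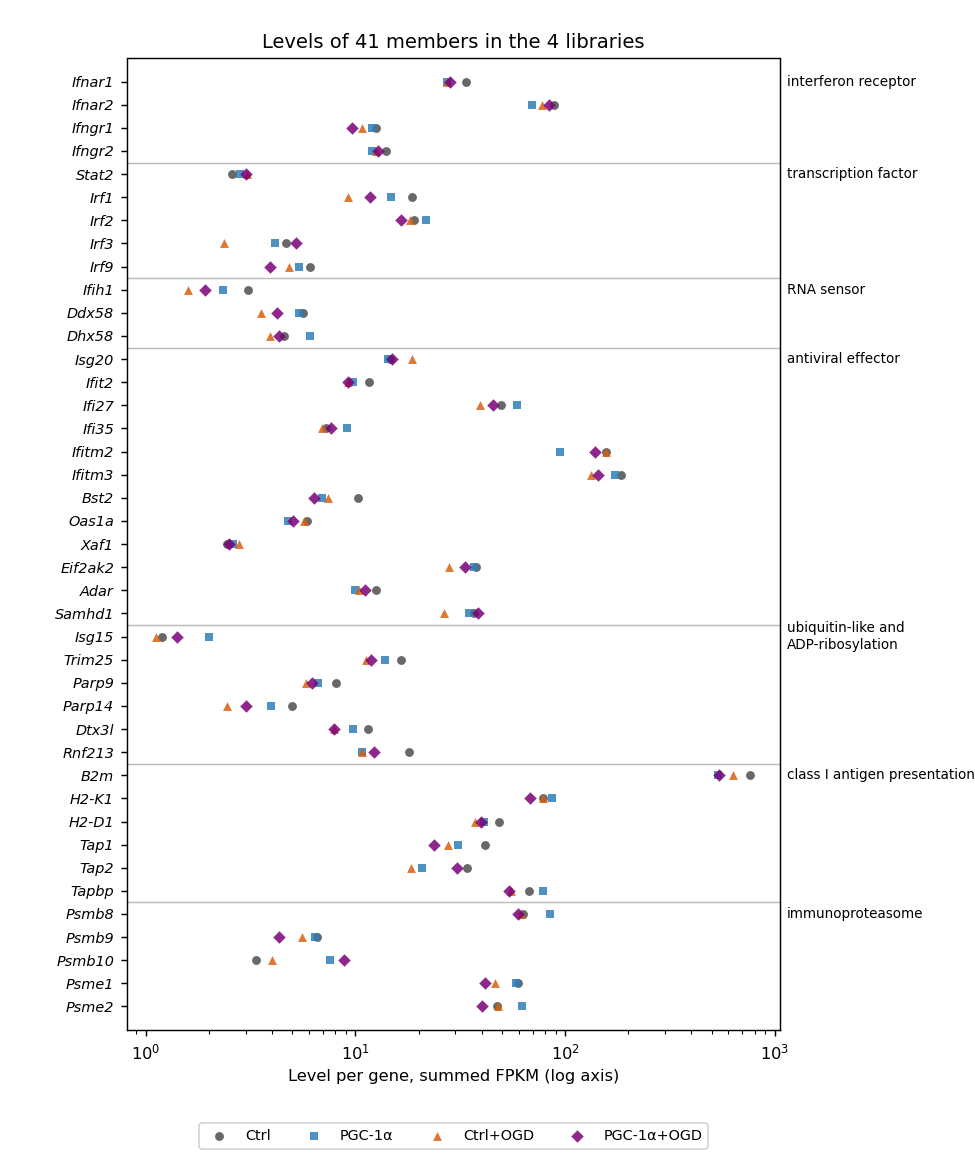
Levels of the 41 members with a mean of at least 1 FPKM, as summed FPKM on a log axis, with 1 marker per library and members grouped by role. B2m lies at 535 FPKM or above in all 4 libraries, and the Ctrl+OGD triangle is the leftmost marker for 18 members.

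After OGD in control cells, most members had values below those of Ctrl. Comparing Ctrl+OGD with Ctrl, 35 of the 41 members (85.4%) had a log2 fold change below 0, against 52.0% of all 10604 genes, and the median of the members was -0.29, against -0.02 for all genes. There were 6 members at least 1.5-fold lower, where 7.71% of all genes were, and 0 members were at least 1.5-fold higher, where 6.2% of all genes were. The 6 were Irf1, Irf3, Ifih1, Parp14, Rnf213 and Tap2. In these bulk cultures, fewer cells that express a gene and less of its RNA per cell cannot be told apart. With the threshold at 2-fold the count of lower members was 0.

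Irf1 (ENSMUSG00000018899, chromosome 11, 53770014 to 53778374, plus strand), whose product activates class I and other interferon-induced genes, was at 18.6 FPKM in Ctrl and 9.24 in Ctrl+OGD, against 14.7 in PGC-1α and 11.7 in PGC-1α+OGD. By its summed value, Irf1 was lower in both OGD libraries than in both libraries without OGD. Its log2 fold change was -0.94 in Ctrl+OGD vs Ctrl and in PGC-1α cells OGD gave -0.31. The sum hides changes among its 6 deposited transcripts: by the most abundant transcript alone, the log2 fold changes were -0.455 and 1.89, the latter of opposite sign. Another transcript, ENSMUST00000140866, gave 8.46 FPKM of the Ctrl sum, against 0.320 in PGC-1α and 0 in both OGD libraries. The order of the libraries and the fold changes without that transcript were not computed. Irf3 (ENSMUSG00000003184, chromosome 7, 44997648 to 45002848, plus strand), which switches on interferon genes once the RNA sensors signal, was at 4.66 FPKM in Ctrl and 2.36 in Ctrl+OGD, against 4.15 in PGC-1α and 5.20 in PGC-1α+OGD. Only the Ctrl+OGD library was low, and the log2 fold changes were -0.75 with OGD in control cells and 0.27 with OGD in PGC-1α cells. By its most abundant transcript alone, Irf3 was also lower in PGC-1α than in Ctrl, with -1.001 in place of -0.14.

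Ifih1 (ENSMUSG00000026896, chromosome 2, 62595798 to 62646255, minus strand), the cytosolic sensor MDA5 for long double-stranded RNA, was at 3.08 FPKM in Ctrl and 1.59 in Ctrl+OGD, against 2.35 in PGC-1α and 1.92 in PGC-1α+OGD. The other RNA sensors also had less in Ctrl+OGD than in Ctrl, short of 1.5-fold. Ddx58, which encodes RIG-I, was at 5.65, 5.40, 3.55 and 4.25 FPKM, and its log2 fold change of -0.55 in Ctrl+OGD vs Ctrl lay just short of 1.5-fold. Dhx58, which encodes the co-sensor LGP2, had -0.18. All 3 sensors were also below 0 with OGD in PGC-1α cells, short of 1.5-fold, with log2 fold changes between -0.42 and -0.20.

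Parp14 (ENSMUSG00000034422, chromosome 16, 35832874 to 35871544, minus strand), an ADP-ribosyltransferase, was at 5.01 FPKM in Ctrl and 2.43 in Ctrl+OGD, against 3.98 in PGC-1α and 2.9995 in PGC-1α+OGD. Its log2 fold change in control cells was -0.81, and -0.32 in PGC-1α cells. It shares 110 bases of exon on its strand with Gm49730, which was not analysed here. Rnf213 (ENSMUSG00000070327, chromosome 11, 119393100 to 119487418, plus strand), a very large ubiquitin ligase, was at 18.0 FPKM in Ctrl and at 10.8, 10.8 and 12.2 FPKM in the other libraries. Here Ctrl alone stood apart, and both the log2 fold change of -0.69 after OGD and that of -0.69 with PGC-1α rest on the same Ctrl value.

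None of the 12 tested antiviral effectors passed 1.5-fold after OGD in control cells by its summed value. Of these, 9 had a log2 fold change below 0, and the range was -0.47 to 0.32. The lowest were Ifitm3 (184 to 133 FPKM), Samhd1, a nucleotide hydrolase that starves viruses of DNA building blocks (36.6 to 26.3 FPKM), Bst2, which tethers virions to the cell (10.3 to 7.41 FPKM), and Eif2ak2, the kinase PKR that stops translation on double-stranded RNA (37.7 to 28.0 FPKM). Their log2 fold changes were -0.47, -0.46, -0.43 and -0.41. Isg20, an exonuclease, was the highest of the 41 with 0.32. Below 0 were also Ifi27, a mitochondrial protein (-0.32), Ifit2, an RNA-binding protein (-0.30), Adar, which edits adenosine in double-stranded RNA (-0.25), Ifi35 (-0.06) and the 2-5A synthetase gene Oas1a (-0.05). Ifitm2 stood at 0.00 and Xaf1, an apoptosis factor, at 0.13. By the most abundant transcript alone, Xaf1 had -0.61, which is past 1.5-fold, and Samhd1 had 0.39 in place of -0.46.

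All 6 tested genes of ubiquitin-like modification and ADP-ribosylation were below 0 in Ctrl+OGD vs Ctrl, and their median was -0.50 on the log2 scale. Besides Parp14 and Rnf213 they were Trim25, the ubiquitin ligase of RIG-I (-0.52), the partners Dtx3l and Parp9 (-0.49 and -0.41) and Isg15 (-0.05). Dtx3l and Parp9 lie next to each other on chromosome 16 and overlap in their exons on opposite strands by 367 bases. The library kit keeps the strand, but whether the authors' quantification used it is not stated in the sources used here, so reads of such pairs may not be fully separated.

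All 4 receptor chains were below 0 but short of 1.5-fold after OGD in control cells, with log2 fold changes of -0.29 for Ifnar1, -0.20 for Ifngr1, -0.18 for Ifnar2 and -0.14 for Ifngr2. Of the further transcription factors, Irf9 had -0.29, Irf2, a counterpart of Irf1, had -0.05, and Stat2 had 0.16. By its most abundant transcript alone, Irf2 had 0.72 in place of -0.05, which is past 1.5-fold. Irf9 shares exons on its strand with Rnf31, and with the values of Rnf31 added its log2 fold change was 0.15 in place of -0.29, so its direction is uncertain.

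In PGC-1α cells the members' median after OGD was also below 0. In PGC-1α+OGD vs PGC-1α, 27 of the 41 members (65.9%) were below 0, against 49.9% of all genes, and the median was -0.20, against 0.00. One member, Psme2, was at least 1.5-fold lower, 2.44% of the 41, where 5.22% of all genes were, and 0 were at least 1.5-fold higher, where 3.82% of all genes were. The immunoproteasome group had a median of -0.48, against -0.05 after OGD in control cells, and the difference was not tested. This comparison shares no library with Ctrl+OGD vs Ctrl. In both, 25 of the 41 members (61.0%) were below 0, against 32.7% of all genes, and 4 members (9.76%) were above 0 in both, against 30.8%. These 4 were Stat2, Isg20, Ifitm2 and Psmb10, of which Ifitm2 was at 0.00 in control cells and turned to below 0 in both with the values of the overlapping Gm45717 added. In the other direction, Irf9 was among the 25 but left them with the values of the overlapping Rnf31 added. It then had 0.15 in control cells and -0.28 in PGC-1α cells. No member was at least 1.5-fold lower in both, where 1.74% of all genes were.

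**Figure D2:**
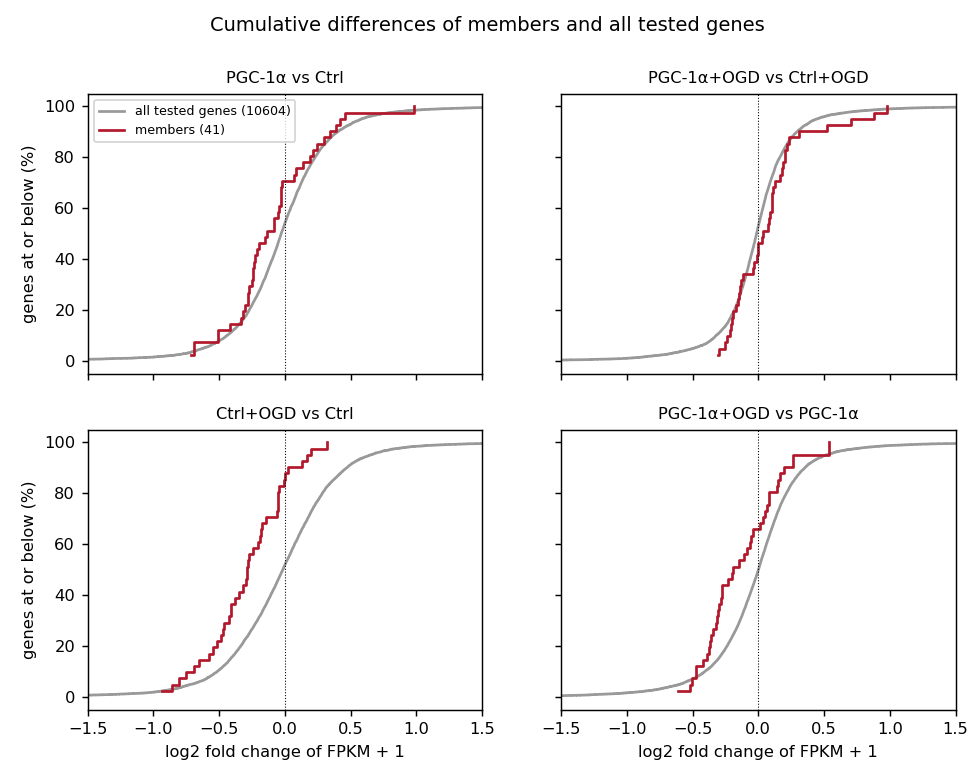
Cumulative share (%) of genes at or below each log2 fold change, for the 41 members (red) and all 10604 tested genes (grey), in the 4 comparisons. The red curve lies to the left of the grey one after OGD in control cells (medians -0.29 and -0.02) and in PGC-1α cells (-0.20 and 0.00); the axis ends at 1.5 on either side.

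Psme2 (ENSMUSG00000079197, chromosome 14, 55587441 to 55591113, minus strand) and Psme1 encode the activator cap PA28 of the proteasome. Psme2 was at 47.1 FPKM in Ctrl and 48.0 in Ctrl+OGD, against 62.0 in PGC-1α and 40.2 in PGC-1α+OGD. The PGC-1α library was the highest of the 4, and the log2 fold change with OGD was -0.61 in PGC-1α cells and 0.03 in control cells. In Psmb8, the immunoproteasome subunit that replaces Psmb5, PGC-1α was likewise the highest and PGC-1α+OGD the lowest library, with 63.3, 84.8, 61.3 and 59.6 FPKM. Tapbp, the class I chaperone tapasin, was at 67.2, 78.1, 55.4 and 54.1 FPKM with the same highest and lowest library. Psme1 differed in that Ctrl was highest, with 59.6, 58.2, 46.5 and 41.6 FPKM.

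With PGC-1α in the absence of OGD, the members ranged from -0.71 (Ifitm2) to 0.98 (Psmb10) on the log2 scale. In PGC-1α vs Ctrl, 29 of the 41 members (70.7%) were below 0, against 54.2% of all genes, and their median was -0.14, against -0.03. Psmb10 was at least 1.5-fold higher, 1 of 41 (2.44%), where 4.91% of all genes were. Ifitm2, Rnf213 and Tap2 were at least 1.5-fold lower, 3 of 41 (7.32%), where 5.63% of all genes were. Both shares were within a few percentage points of those of all genes. The place of Ifitm2 as lowest member and its call are uncertain, since it had 0.08 with the values of the overlapping Gm45717 added. B2m did not pass, with 763 FPKM in Ctrl and 628 in Ctrl+OGD, against 535 in PGC-1α and 541 in PGC-1α+OGD, and a log2 fold change of -0.51 between PGC-1α and Ctrl.

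With OGD, the members lay on either side of no change. In PGC-1α+OGD vs Ctrl+OGD, 19 of the 41 members (46.3%) were below 0, against 52.9% of all genes, and the median was 0.04, against -0.01. With a mean of at least 5 FPKM as the filter the median was -0.00 (-0.003), so it has no secure sign. Irf3, Tap2 and Psmb10 were at least 1.5-fold higher, 3 of 41 (7.32%), where 3.08% of all genes were, and 0 members were at least 1.5-fold lower, where 3.82% of all genes were.

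Psmb10 (ENSMUSG00000031897, chromosome 8, 105935735 to 105938444, minus strand), the trypsin-like subunit of the immunoproteasome, was higher with PGC-1α in both comparisons. It was at 3.35 FPKM in Ctrl and 3.99 in Ctrl+OGD, against 7.59 in PGC-1α and 8.85 in PGC-1α+OGD. Both PGC-1α libraries were above both control libraries, with FPKM ratios of 2.27 without OGD and 2.22 with OGD, and the log2 fold change was 0.98 in each. It was the only member at least 1.5-fold higher in both, where 0.707% of all genes were; no member was at least 1.5-fold lower in both, where 0.745% of all genes were. The value rests on 1 transcript, and no exon overlap with another gene was found. Neither motif core occurs in its promoter window.

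Tap2 (ENSMUSG00000024339, chromosome 17, 34203527 to 34216321, plus strand), which forms the peptide transporter of the endoplasmic reticulum together with Tap1, was lower with PGC-1α without OGD and higher with OGD. It was at 34.2 FPKM in Ctrl and 18.4 in Ctrl+OGD, against 20.8 in PGC-1α and 30.7 in PGC-1α+OGD. The high values thus belong to the libraries with neither or both of PGC-1α and OGD. The log2 fold changes were -0.69 and 0.71 for PGC-1α, and -0.86 and 0.54 for OGD in control and PGC-1α cells.

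The difference between these PGC-1α effects was largest for Tap2 among the members. On the log2 scale, the effect with OGD minus that without was 1.40 for Tap2, 1.02 for Irf3, 0.86 for Rnf213, 0.63 for Irf1 and 0.60 for Samhd1. These 5 members (12.2%) were past 1.5-fold in this direction, where 7.69% of all genes were. Psme2, at -0.64, was the 1 member (2.44%) past 1.5-fold in the other direction, where 7.28% of all genes were. By its most abundant transcript alone Samhd1 was not past 1.5-fold here, with PGC-1α effects of 0.42 without OGD and -0.03 with OGD, and its change after OGD in control cells turned from -0.46 to 0.39. All 5 higher members had a lower summed value in Ctrl+OGD than in PGC-1α+OGD. The median of the members was 0.21, against 0.01 for all genes.

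**Figure D3:**
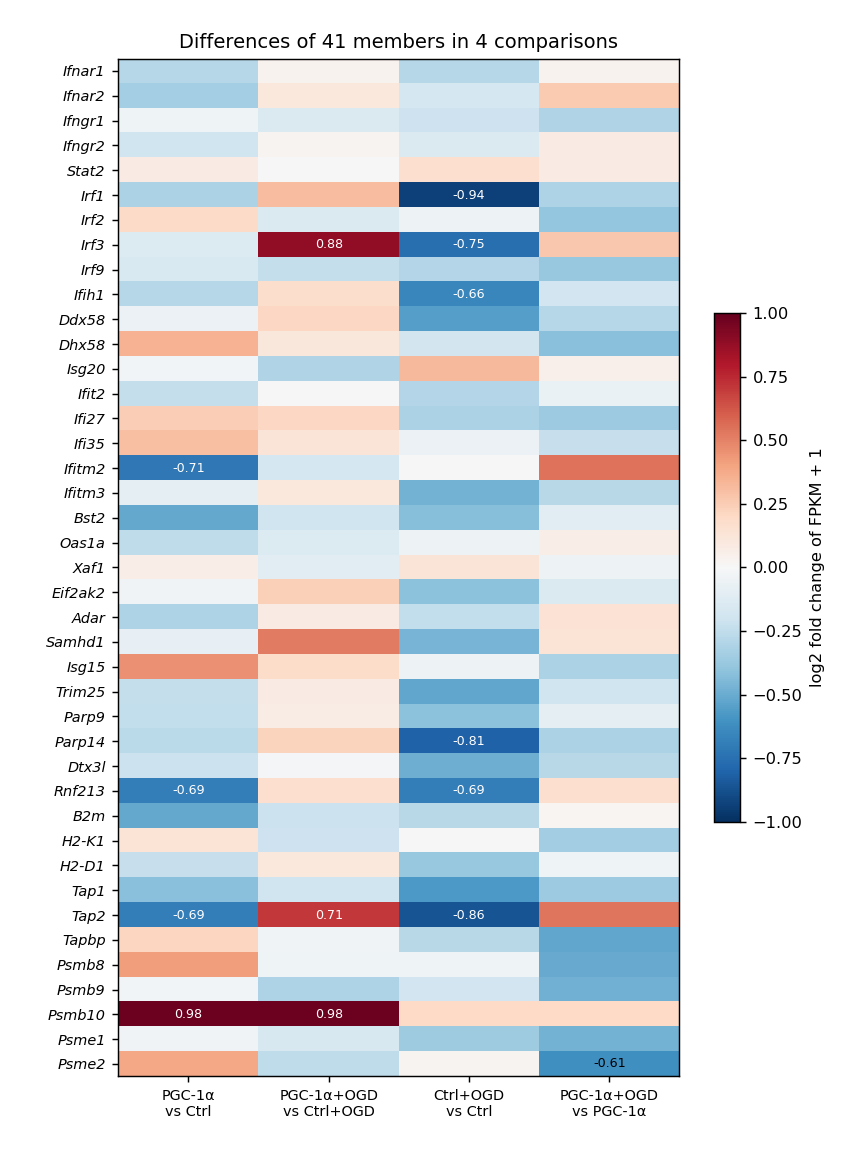
Log2 fold changes of FPKM + 1 for the 41 members (rows) in the 4 comparisons (columns), with the value written where it passes 1.5-fold. Psmb10 is red (0.98) in both columns of PGC-1α against control, and the column of OGD in control cells is mostly blue.

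The Ctrl library had the highest value for 25 of the 41 members (61.0%), against 34.5% of all genes, and the lowest for 3 (7.32%), against 28.2%. The lowest value lay in Ctrl+OGD for 18 members (43.9%), against 24.4% of all genes, and in PGC-1α+OGD for 13 (31.7%), as it did for 2437 of the 10604 genes. The comparisons of PGC-1α and of Ctrl+OGD with Ctrl share that library, so a high value there enters both, and a property of that single culture cannot be told apart from the conditions.

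Ifitm2 (ENSMUSG00000060591, chromosome 7, 140954837 to 140955987, minus strand) was at 156 FPKM in Ctrl and 156 in Ctrl+OGD, against 94.8 in PGC-1α and 138 in PGC-1α+OGD. Between PGC-1α and Ctrl its log2 fold change was -0.71, the lowest of the members. Gm45717, a predicted gene that shares exons with Ifitm2 on the same strand, was at 0.515 FPKM in Ctrl and 71.1 in PGC-1α, and was listed at 0 in both OGD libraries. With the values of both genes added, the log2 fold change was 0.08. How reads of the shared exons were assigned was not tested. Ifitm3, a close relative some distance away on the same chromosome, had a log2 fold change of -0.09 in that comparison.

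**Figure D4:**
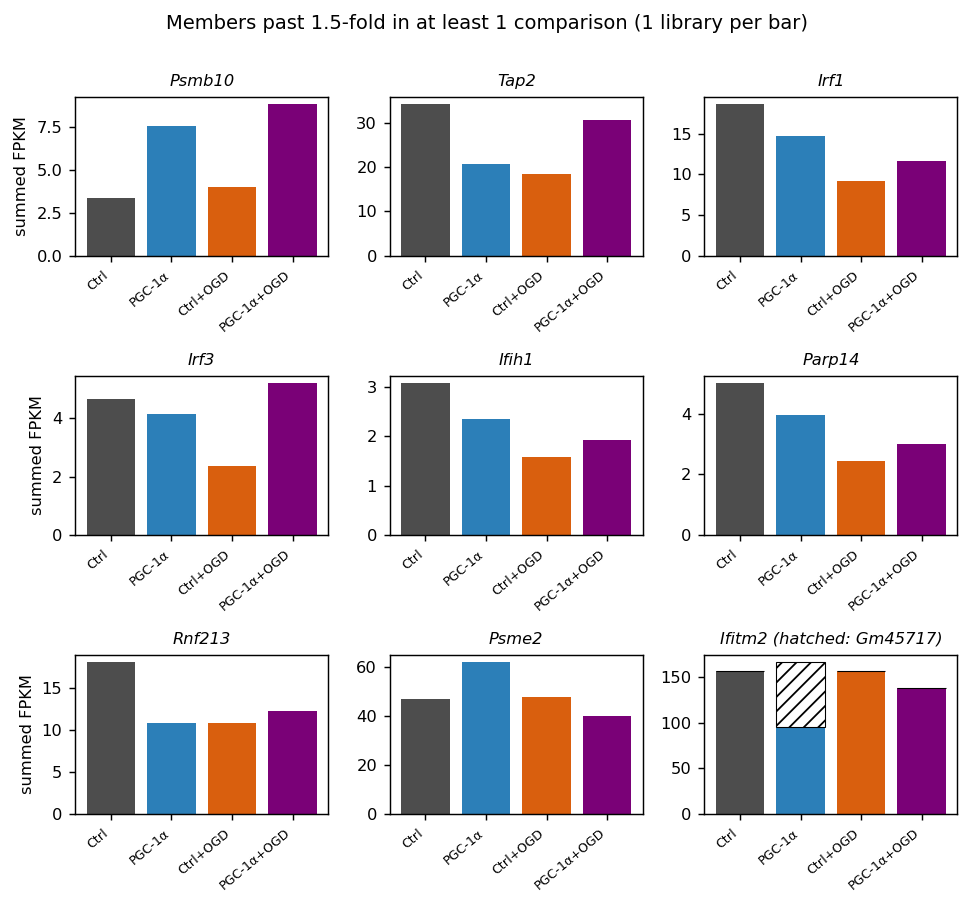
Summed FPKM in each library for the 9 members past 1.5-fold in at least 1 comparison, with 1 library per bar and axes from 0. For Ifitm2, the hatched part is the value of Gm45717, 71.1 FPKM in PGC-1α.

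The catalytic subunits of the immunoproteasome take the place of constitutive subunits, and the levels of both can be compared per length. Psmb8 had 253% of the FPKM of Psmb5 in Ctrl and 131% in Ctrl+OGD, against 196% in PGC-1α and 135% in PGC-1α+OGD. Psmb5 itself was at 25.0, 43.2, 46.8 and 44.1 FPKM, so the larger share in Ctrl goes with the lower level of Psmb5 there. Psmb9 had 7.31% of the FPKM of Psmb6 in Ctrl and 4.51% in Ctrl+OGD, against 5.84% in PGC-1α and 3.63% in PGC-1α+OGD. Psmb10 had 3.48% of the FPKM of Psmb7 in Ctrl and 3.07% in Ctrl+OGD, and 7.49% and 7.45% in the PGC-1α and PGC-1α+OGD libraries. The 3 constitutive subunits were all above 0 after OGD in control cells, with log2 fold changes of 0.88, 0.47 and 0.43 for Psmb5, Psmb6 and Psmb7, while Psmb8, Psmb9 and Psmb10 had -0.05, -0.19 and 0.20.

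There are 7 members in the major histocompatibility complex on chromosome 17, from Tapbp (start 33915899) to H2-D1 (end 35267499). After OGD in control cells all 7 were below 0, from -0.86 for Tap2 to -0.01 for H2-K1. In PGC-1α vs Ctrl they differed in sign, and the log2 fold changes along the chromosome were 0.21 for Tapbp, 0.13 for H2-K1, -0.02 for Psmb9, -0.42 for Tap1, 0.42 for Psmb8, -0.69 for Tap2 and -0.23 for H2-D1. Psmb8 and Tap2 are neighbours on the same strand and stood at opposite ends of this range. Psmb9 and Tap1 start head to head, and their RefSeq promoter windows of 300 bases share 275 bases. Tap1 was at 41.5 FPKM in Ctrl and 27.5 in Ctrl+OGD, against 30.9 in PGC-1α and 23.8 in PGC-1α+OGD, and Psmb9 at 6.53, 6.41, 5.59 and 4.32 FPKM. Both genes had the same order of the libraries. The analysed Psmb9 transcript overlaps exons of Tap1 on the opposite strand by 212 bases.

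Medians of the members with and without the response element cores are given as a description, and their differences were not tested. Of the 36 tested members with a promoter window, the 12 with the interferon-stimulated core had a median of -0.32 on the log2 scale after OGD in control cells, and the 24 without it -0.26. After OGD in PGC-1α cells these medians were -0.17 and -0.13. With PGC-1α they were -0.07 and -0.14 without OGD, and -0.07 and 0.01 with OGD. For TTCNNNGAA, the 14 members with it had a median of -0.27 after OGD in control cells, and the 22 without it -0.28. After OGD in PGC-1α cells the values were -0.09 and -0.24. With PGC-1α they were -0.16 and -0.10 without OGD, and 0.06 and -0.02 with OGD.

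The members below 1 FPKM were near the edge of what the table holds. Usp18, which removes Isg15 from proteins, was at 1.53 FPKM in Ctrl and 0.343 in Ctrl+OGD, against 0.356 in PGC-1α and 0.430 in PGC-1α+OGD, so that Ctrl alone was high. Ifit1 was at 0.445, 0.598, 0.186 and 0.156 FPKM, and Ifit3 at 0.986, 1.16, 0.542 and 0.486 FPKM. For both of these genes, the 2 OGD values lay below the 2 without OGD. Gbp2, a guanylate-binding protein, was at 0.828, 0.770, 0.749 and 0.419 FPKM. Irf7, the factor that amplifies interferon production, was at 0.711 FPKM in Ctrl and 1.03 in PGC-1α, through a different transcript in each, and was listed at 0 in both OGD libraries.

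A further 124 genes of the interferon and antigen presentation pathways were listed by function, of which 96 had values and 84 a mean of at least 1 FPKM. The list was written with earlier results of these data known, so its counts are no independent check of the members. In Ctrl+OGD vs Ctrl, 24 of the 84 were at least 1.5-fold lower (7.71% of all genes were) and 5 at least 1.5-fold higher (6.2% of all genes), and the median of the 84 was -0.41 on the log2 scale. With OGD in PGC-1α cells these counts were 20, beside 5.22% of all genes, and 3, beside 3.82% of all genes, and the median was -0.21. Of the 84, 12 (14.3%) were at least 1.5-fold lower in both, where 1.74% of all genes were, among them Stat3, Sp100, Sp140, Igtp, Iigp1, Plscr2, Slfn2, Casp1, Casp4, H2-T23 and H2-DMa. The differences were larger than in any of the 41 members for Iigp1, an immunity-related GTPase, which was at 9.20 FPKM in Ctrl and 1.11 in Ctrl+OGD, against 8.43 in PGC-1α and 1.503 in PGC-1α+OGD. Slfn2, a Schlafen family gene, was at 30.5, 20.1, 7.19 and 7.64 FPKM, and the inflammatory caspase gene Casp4 at 64.9, 39.1, 16.8 and 19.9 FPKM. For these 3 genes both OGD libraries lay below both libraries without OGD. Cd74, the class II invariant chain, was at 69.5 FPKM in Ctrl and 41.3 in Ctrl+OGD, against 55.4 in PGC-1α and 44.9 in PGC-1α+OGD. It was at least 1.5-fold lower after OGD in control cells only. The class Ib gene H2-T23 was at 9.17, 4.66, 3.10 and 1.40 FPKM in the 4 libraries.

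In the comparisons of PGC-1α with control, fewer of the further pathway genes passed 1.5-fold. Without OGD, 4 of the 84 were at least 1.5-fold higher (Tbk1, Lgals9, Plscr2 and Psmb5) and 6 at least 1.5-fold lower (Tyk2, Tor3a, Sp110, Casp4, H2-T23 and Nlrc5), where 4.91% and 5.63% of all genes were. With OGD, Shisa5 and Plscr2 were higher, and 7 were lower (Tbk1, Trim26, Sp110, Tmem140, Ripk1, H2-T23 and Rfxank), where 3.08% and 3.82% of all genes were. Some of these calls depend on the sum over transcripts. By the most abundant transcript alone, Lgals9 had a log2 fold change of -1.12 without OGD in place of 0.64, the opposite sign. Tyk2 likewise had -0.34 without OGD in place of -0.63, and Tmem140 had 0.0 with OGD in place of -0.70. Sp110 and H2-T23 were lower in both comparisons, 2.38% of the 84, where 0.745% of all genes were. Plscr2 was higher in both, 1.19% of the 84, where 0.707% of all genes were. Sp110, a nuclear body protein, was at 3.19 FPKM in Ctrl and 2.05 in Ctrl+OGD, against 1.23 in PGC-1α and 0.213 in PGC-1α+OGD. Plscr2, a phospholipid scramblase, was at 2.03, 11.7, 0.653 and 3.03 FPKM.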

How the data were processed

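RNA-Seq values of 4 HT-22 libraries, 1 per group, were analysed. The authors enriched poly(A) RNA, prepared stranded libraries, sequenced paired ends and aligned the reads to GRCm38 with HISAT2 (2.1.0 in the submitters' processing notes). The table deposited by the authors holds 1 value per transcript for 25889 transcripts and names no unit; these deposited values were taken as FPKM made by the authors from the aligned reads, since none lies below 0 and the columns have different totals. The program, annotation and filter behind them are not given in the sources used here. Every transcript reached 0.500 FPKM in at least 1 library. Read numbers are unknown: at most 33.1% of 1000 low values per library lay within 0.1 of a whole read step.

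Transcripts were matched to GENCODE M21 by identifier without version (25822 matched, 99.7%) and summed per symbol. Differences of log2(FPKM + 1) were computed without further scaling for genes averaging 1 FPKM or more, and counted at 1.5-fold. The calculations used pandas 2.3.3 and numpy 2.4.6 under Python 3.11.15, with plots from matplotlib 3.10.9, and were tested on simulated data. The alternatives were the most abundant transcript in place of the sum, pseudocounts of 0.1 and 0.01, no filter, a mean of at least 5 FPKM, 3 scalings, 2-fold as the threshold, and members with shared exons left out. Adding the values of genes with shared exons was chosen after seeing the data. The members and lists were chosen with earlier results of these data known. Any member could be named, with full values for those past 1.5-fold and the 5 of highest level; other genes were named if on the pathway list and past 1.5-fold, if they share exons with a member, or as constitutive proteasome subunits. Values of further members and of those below 1 FPKM are given outside this rule, and not every pathway gene that meets it is given with values.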

Additional observations from a re-analysis of the deposited data

Results flagged for a closer look

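Tap2 moved in opposite directions with PGC-1α in the comparisons without and with OGD, which share no library. Its log2 fold change was -0.69 in PGC-1α vs Ctrl and 0.71 in PGC-1α+OGD vs Ctrl+OGD, each from 1 library per group. The difference between the effects was not tested, since no group has a replicate.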

How the results depend on the processing

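No paired analysis was possible because each group has 1 library. With the most abundant transcript in place of the sum, 2 members were higher and 5 lower in PGC-1α vs Ctrl, 2 were lower in PGC-1α+OGD vs Ctrl+OGD, 1 was higher in Ctrl+OGD vs Ctrl, and 2 were higher and 3 lower in PGC-1α+OGD vs PGC-1α. With it, 3 members had a lower PGC-1α effect with OGD than without, 7 further pathway genes were higher and 10 lower in PGC-1α vs Ctrl, 7 were higher in PGC-1α+OGD vs Ctrl+OGD, and Irf1 had 1.89 in PGC-1α+OGD vs PGC-1α; reads moving between transcripts enter these values. With a pseudocount of 0.1 or 0.01, 2 members were higher in PGC-1α vs Ctrl, and 7 further pathway genes were higher and 12 lower, and 4 were higher in PGC-1α+OGD vs Ctrl+OGD. With no filter, 2 members were lower in PGC-1α+OGD vs PGC-1α and 4 further pathway genes were higher in PGC-1α+OGD vs Ctrl+OGD. With a mean of at least 5 FPKM, which tests fewer genes, 3 members were lower in Ctrl+OGD vs Ctrl, the median in PGC-1α+OGD vs Ctrl+OGD was -0.003, and further pathway genes numbered 1 higher and 4 lower in PGC-1α+OGD vs Ctrl+OGD and 13 lower in PGC-1α+OGD vs PGC-1α. At 2-fold, 0 members were higher or lower in any of the 4 comparisons, 2 had a higher and 0 a lower PGC-1α effect with OGD than without, and further pathway genes numbered 2 higher and 1 lower in PGC-1α vs Ctrl, 1 and 3 in PGC-1α+OGD vs Ctrl+OGD, 3 and 6 in Ctrl+OGD vs Ctrl, and 1 and 7 in PGC-1α+OGD vs PGC-1α. With the values of Gm45717 added, Ifitm2 had 0.084 in PGC-1α vs Ctrl. The cause of these changes was not tested beyond the construction of each alternative. The other 192 counts and medians under an alternative kept their direction and stayed within 1.5 times, or within 0.1 for medians. The medians after OGD stayed below 0 under all alternatives run, from -0.37 to -0.26 in control cells and from -0.22 to -0.15 in PGC-1α cells. Without read numbers or replicates, depth and biological spread limit every value to a description.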

Other observations

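Tbk1, a kinase that activates Irf3, was at 6.79 FPKM in Ctrl and 16.1 in Ctrl+OGD, against 15.2 in PGC-1α and 6.77 in PGC-1α+OGD. The libraries with 1 of the 2 factors were both high, which is the reverse of the order seen for Tap2. The adaptor kinase Ripk1 was at 8.003 FPKM in Ctrl, 12.4 with PGC-1α, 21.6 with OGD and 11.9 with both and the ubiquitin ligase Trim26 at 8.97, 13.8, 24.5 and 11.5 FPKM in these libraries, so that for both Ctrl+OGD was the highest library. In all 3 genes most of the difference came from 1 transcript. The Ripk1 transcript ENSMUST00000021844 was at 0.0407 FPKM in Ctrl and 20.6 in Ctrl+OGD, while ENSMUST00000167374 was at 6.34 and 0.979 FPKM. These genes were chosen after their values were seen.

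Tor3a, an interferon-induced ATPase with 1 analysed transcript, was at 11.4 FPKM in Ctrl and 12.3 in Ctrl+OGD, against 2.31 in PGC-1α and 10.2 in PGC-1α+OGD, so that 1 library alone was low.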
